A study of Homo sapiens with 12 samples.

Results

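The 10 genes described here encode proteins of the extracellular matrix and were followed across 12 Illumina bead arrays of the human embryonic stem cell line H9: the proteoglycans DCN, LUM, BGN and VCAN, the matricellular proteins SPARC, POSTN and TGFBI, and the secreted EGF-like or sushi-domain proteins EGFLAM, EGFL6 and SRPX2. They were picked by symbol, and the list includes genes chosen for a large difference at day 16, so the day 16 comparison is a description for them and supports nothing. All 10 had probes, 18 in number, of which 14 passed the detection filter, and all 10 were among the 15650 genes tested. One arm held H9 cells with a doxycycline-inducible LHX2 construct, either given the drug for 3 days (dox-plus) or left without it (dox-minus), with RNA taken at day 4 and at day 16, that is 1 and 13 days after the drug. The other arm held H9 cells with a short hairpin RNA against LHX2 (shLHX2) and cells with a hairpin against luciferase (shLuc), both after 12 days of neural induction. LHX2 encodes a LIM-homeodomain transcription factor of the forebrain and eye field. Each of the 6 groups had 2 arrays, described by the submitters as biological duplicates. The series text names GFP as the control for overexpression, while the array labels name dox-plus and dox-minus LHX2 cells only, so doxycycline and LHX2 cannot be told apart.

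Proteoglycans are secreted or membrane proteins that carry long sulfated sugar chains. The small leucine-rich ones bind collagen fibrils and growth factors of the TGF-beta family, and versican binds hyaluronan. Matricellular proteins sit in the matrix without being its main scaffold and modulate how cells attach to it through integrins and collagen. In the embryo many genes of these families are expressed by mesenchyme, whereas versican is also a matrix component of neural tissue.

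The arrays detected 19050 to 20489 of 47227 probes at a detection p under 0.01, and across genes, arrays of 1 group correlated at 0.976 to 0.994 and arrays of different groups at 0.901 to 0.989. All values are normalized log2 signals unless a fold is named, and the number of arrays limits their precision. All 4 pluripotency markers tested were detected in every group, with summed signals of 23500 to 26600 in dox-plus and 28200 to 31300 in dox-minus cells at day 4. LHX2 itself stood at 7.35 and 8.09 in shLHX2 cells, against 9.77 and 9.73 in shLuc cells, a fall of 2.03 ± 0.27 (SE; limma adjusted p = 0.00592). In the day 4 dox groups LHX2 was near the detection limit, with 6.05 and 5.45 in dox-plus and 5.23 and 4.87 in dox-minus cells. It was detected there on 1 dox-plus array only, and its difference of 0.70 ± 0.27 (SE) missed the threshold (limma adjusted p = 0.272). At day 16 it stood at 12.79 and 13.04 in dox-plus cells, against 12.19 and 11.92 in dox-minus cells, a difference of 0.86 ± 0.27 (SE) that missed the threshold (limma adjusted p = 0.0581).

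At day 4, 1 day after the drug, dox-plus cells had higher levels of BGN and EGFL6 than dox-minus cells did, and the other 8 genes did not pass the test. Of all genes tested, 1.93% were called at day 4, 1.34% higher and 0.594% lower. Between the knockdown groups only DCN passed, higher in shLHX2 than in shLuc cells, beside 0.543% of all genes, 0.249% higher and 0.294% lower. A gene was called when its limma p, adjusted by Benjamini-Hochberg over all 15650 genes, was under 0.05. Before adjustment, 3 of the 10 genes at day 4 had a p under 0.05, beside 13.9% of all genes, and 4 of the 10 in the knockdown arm, beside 10.2%. The median difference over the 10 genes was 0.10 at day 4, beside -0.01 over all genes, and -0.04 in the knockdown arm, beside 0.01.

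**Figure D1:**
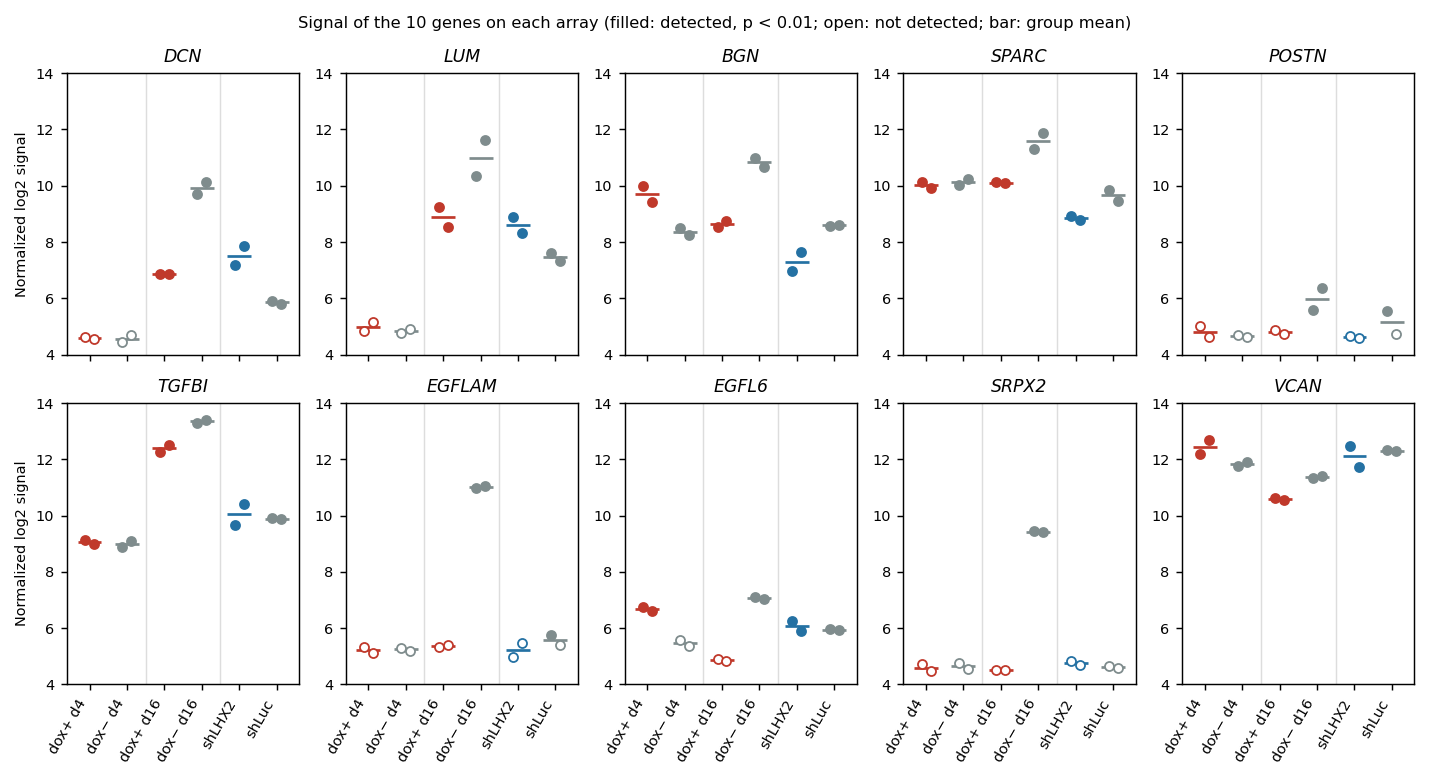
Normalized log2 signal of each of the 10 genes on the 12 arrays, 1 panel a gene, with dox-plus left of dox-minus at each day and shLHX2 left of shLuc. Filled points were detected and open points were not, and bars are means of 2 arrays. EGFLAM and SRPX2 stand near the floor everywhere except on the 2 dox-minus day 16 arrays.

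BGN encodes biglycan, a small leucine-rich proteoglycan that binds collagen and is known as a modulator of BMP and TGF-beta signalling. At day 4 its signal was 10.001 and 9.425 in dox-plus cells, against 8.492 and 8.254 in dox-minus cells. Both dox-plus arrays were above both dox-minus arrays, and the difference was 1.34 ± 0.26 (SE), a fold of 2.53 (limma adjusted p = 0.0256). In bulk cultures such as these, a change in the share of a cell type and a change in RNA per cell cannot be told apart. The call did not hold without dox-minus replicate 1 (limma adjusted p = 0.118), dox-minus replicate 2 (0.212) or dox-plus replicate 1 (0.131), nor without either shLuc array (0.0563), and the difference then ran from 1.05 to 1.46. After knockdown BGN stood at 6.96 and 7.63 in shLHX2 cells, against 8.56 and 8.62 in shLuc cells. The 2 groups did not overlap, and the difference of -1.30 ± 0.26 (SE) missed the threshold (limma adjusted p = 0.0556). At day 16 the signal was 8.52 and 8.75 in dox-plus cells, against 10.99 and 10.67 in dox-minus cells, a difference of -2.20 ± 0.26 (SE) and the opposite direction to day 4. From day 4 to day 16 the level of BGN differed by 2.46 ± 0.26 (SE) in dox-minus cells and by -1.08 ± 0.26 (SE) in dox-plus cells. Its lowest level of all 6 groups was in shLHX2 cells.

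The promoter of BGN is shown because this gene passed the test at day 4. The window covers 250 bases before the start site at chrX:153494730-153494979 on the plus strand (RefSeq, GRCh38.p14), written 5′ to 3′, and 74.0% of its bases are G or C.
BGN: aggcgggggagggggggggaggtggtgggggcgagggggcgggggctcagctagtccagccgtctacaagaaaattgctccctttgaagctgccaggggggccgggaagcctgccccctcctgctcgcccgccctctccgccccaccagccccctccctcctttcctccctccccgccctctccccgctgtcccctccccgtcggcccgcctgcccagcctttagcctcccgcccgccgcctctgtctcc
None of the searched motifs, described with the other promoters, occurs in it, so it has no capitals.

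DCN and LUM encode decorin and lumican, small leucine-rich proteoglycans that bind collagen fibrils. Decorin also binds TGF-beta, and lumican carries keratan sulfate in the cornea. The genes lie next to each other on chromosome 12, with KERA, the gene of keratocan, on the other side of LUM. At day 4 neither gene was detected on any array. DCN stood at 4.62 and 4.56 in dox-plus cells, against 4.46 and 4.68 in dox-minus cells. LUM stood at 4.83 and 5.14 in dox-plus cells, against 4.75 and 4.92 in dox-minus cells. After 12 days of neural induction both were detected on all 4 arrays. DCN stood at 7.17 and 7.86 in shLHX2 cells, against 5.92 and 5.78 in shLuc cells. It was higher in shLHX2 cells by 1.67 ± 0.24 (SE), a fold of 3.18 (limma adjusted p = 0.00824), with no overlap of the groups. The difference was 1.03 without background correction (limma adjusted p = 0.0385) and 0.89 with the unnormalized series values, where the call was lost (limma adjusted p = 0.0864). Without shLHX2 replicate 2 limma's adjusted p was 0.0863, without shLuc replicate 1 it was 0.106 and without shLuc replicate 2 it was 0.146, with the difference at 1.32, 1.74 and 1.60. LUM stood at 8.87 and 8.32 in shLHX2 cells, against 7.61 and 7.32 in shLuc cells. Its groups did not overlap either, but the difference of 1.13 ± 0.37 (SE) missed the threshold (limma adjusted p = 0.271), and its 95% interval ran from 0.32 to 1.94.

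At day 16 DCN stood at 6.86 and 6.88 in dox-plus cells, against 9.70 and 10.13 in dox-minus cells, a difference of -3.05 ± 0.24 (SE). LUM stood at 9.24 and 8.55 in dox-plus cells, against 10.35 and 11.63 in dox-minus cells, a difference of -2.09 ± 0.37 (SE). Both genes were thus detected in the dox-plus cells too, at levels below those of the dox-minus cells on every array. The difference of LUM was -1.45 without dox-minus replicate 2 and -2.74 without dox-minus replicate 1. The 2 dox-minus arrays of LUM differed in unnormalized signal, 1343 and 2992, by 11.7 times their combined bead standard error, the largest such ratio among the 10 genes. Relative to the undetected day 4 level, DCN was at least 2.34-fold higher at day 16 in dox-plus cells and at least 18.9-fold higher in dox-minus cells. LUM was at least 9.57-fold higher at day 16 in dox-plus cells and at least 39.9-fold higher in dox-minus cells. These bounds set the day 16 mean against, for every day 4 array, the lowest detected signal or the gene's own, whichever was higher.

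VCAN encodes versican, the large hyaluronan-binding chondroitin sulfate proteoglycan, and its gene neighbours HAPLN1, which encodes a link protein that ties such proteoglycans to hyaluronan. It was detected on all 12 arrays. At day 4 it stood at 12.18 and 12.69 in dox-plus cells, against 11.78 and 11.91 in dox-minus cells. The groups did not overlap, but the difference of 0.59 ± 0.25 (SE) missed the threshold (limma adjusted p = 0.308). The knockdown groups overlapped, with 12.48 and 11.73 in shLHX2 cells, against 12.32 and 12.30 in shLuc cells, a difference of -0.20 ± 0.25 (SE; limma adjusted p = 0.849). At day 16 VCAN stood at 10.61 and 10.57 in dox-plus cells, against 11.32 and 11.41 in dox-minus cells. That difference, -0.78 ± 0.25 (SE), was the smallest of the 10 genes at day 16. VCAN was the only one of the 10 whose highest group mean was not in dox-minus day 16 cells. The list includes genes chosen for a large day 16 difference, so the group where the others were highest is not read as a result. The kept probes of POSTN, EGFLAM and SRPX2 passed the detection filter only through the dox-minus day 16 group. VCAN was highest in dox-plus day 4 cells, a group that overlapped shLuc and shLHX2. Between day 4 and day 16 it differed by -1.84 ± 0.25 (SE) in dox-plus cells and by -0.47 ± 0.25 (SE) in dox-minus cells.

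**Figure D2:**
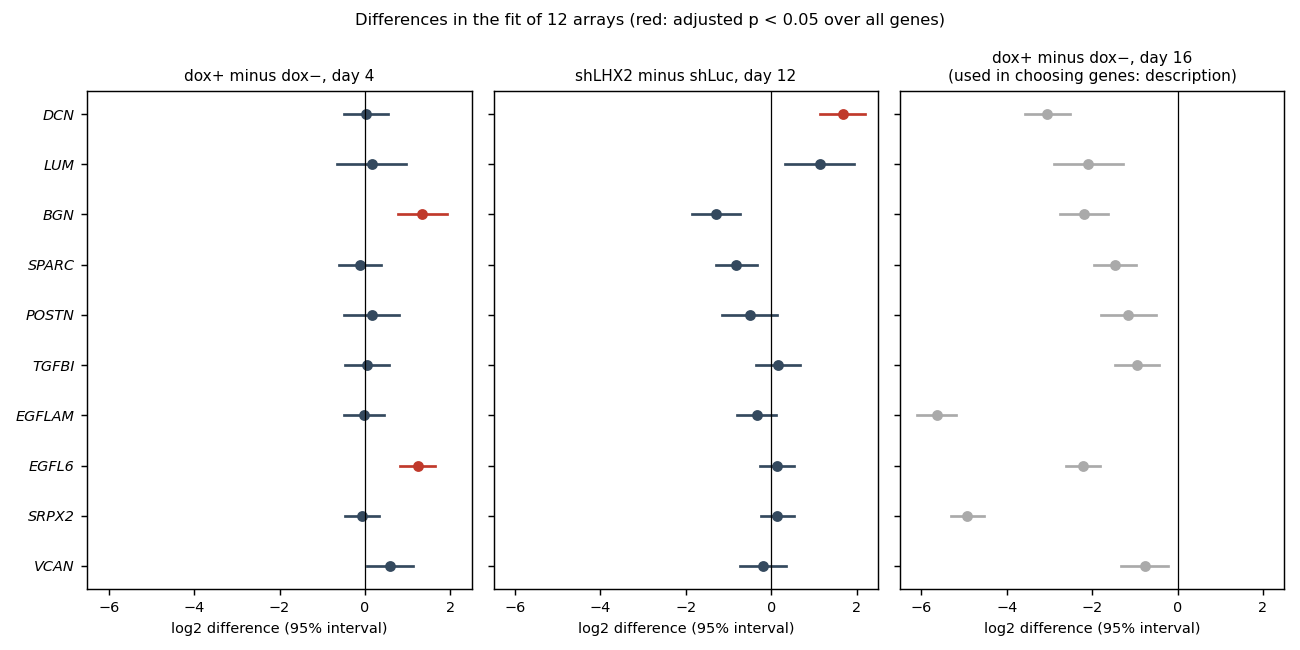
Differences in log2 signal of the 10 genes in 3 comparisons, with 95% intervals from the fit of 12 arrays. Red marks an adjusted p under 0.05 in the comparisons that were tested, which are BGN and EGFL6 at day 4 and DCN in the knockdown arm, and the grey day 16 panel is a description, where all 10 differences are below 0, from -5.64 to -0.78.

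SPARC encodes osteonectin, a collagen-binding matricellular protein, and was detected on all 12 arrays. At day 4 its signals overlapped, with 10.12 and 9.91 in dox-plus cells, against 10.03 and 10.23 in dox-minus cells. The difference was -0.12 ± 0.22 (SE), with a 95% interval from -0.60 to 0.37. With LHX2 knocked down SPARC stood at 8.92 and 8.77 in shLHX2 cells, against 9.85 and 9.47 in shLuc cells. The groups did not overlap, and the difference of -0.82 ± 0.22 (SE) missed the threshold (limma adjusted p = 0.164). At day 16 it stood at 10.13 and 10.10 in dox-plus cells, against 11.31 and 11.86 in dox-minus cells, a difference of -1.47 ± 0.22 (SE). In dox-plus cells the day 16 level overlapped the day 4 level, with a difference of 0.10 ± 0.22 (SE), whereas in dox-minus cells the 2 days differed by 1.45 ± 0.22 (SE).

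POSTN and TGFBI encode periostin and the TGF-beta-induced protein, a pair of matricellular proteins built from fasciclin domains that bind integrins. POSTN was close to the detection limit throughout. It was detected on both dox-minus day 16 arrays, at 5.58 and 6.36, and on 1 shLuc array, at 5.55, and on no other array. Its dox-plus day 16 signals were 4.88 and 4.74, so it was at least 1.37-fold lower there. Its difference was 0.15 ± 0.30 (SE) at day 4 and -0.51 ± 0.30 (SE) in the knockdown arm (limma adjusted p = 0.883 and 0.620). TGFBI was detected on all 12 arrays. At day 4 it stood at 9.12 and 8.98 in dox-plus cells, against 8.89 and 9.10 in dox-minus cells, a difference of 0.05 ± 0.23 (SE). Its shLHX2 signals of 9.67 and 10.41 lay on both sides of its shLuc signals of 9.92 and 9.87, a difference of 0.15 ± 0.23 (SE). At day 16 TGFBI stood at 12.27 and 12.51 in dox-plus cells, against 13.29 and 13.40 in dox-minus cells, a difference of -0.96 ± 0.23 (SE). Between day 4 and day 16 it differed by 3.34 ± 0.23 (SE) in dox-plus cells and by 4.35 ± 0.23 (SE) in dox-minus cells. TGFBI was thus higher at day 16 than at day 4 in both dox groups, unlike SPARC and POSTN, whose dox-plus levels overlapped between the days.

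EGFL6 encodes a secreted EGF-like protein that binds integrins and in the mouse is a basement membrane component of the hair follicle. At day 4 it stood at 6.77 and 6.62 in dox-plus cells and was detected on both arrays, against 5.57 and 5.35 in dox-minus cells, where it was detected on neither. The difference was 1.23 ± 0.18 (SE), at least 2.03-fold on the background-corrected scale (limma adjusted p = 0.00793). It was 0.63 without background correction, 0.79 with the unnormalized series values and 0.82 with offset 50, and was called in each (limma adjusted p = 0.0260, 0.0129 and 0.0149). The call did not hold without dox-minus replicate 1, dox-minus replicate 2 or dox-plus replicate 1, but held without dox-plus replicate 2. The difference then ran from 1.12 to 1.34. With only the 4 arrays of the comparison the call was lost too (limma adjusted p = 0.0650). The knockdown groups overlapped for EGFL6, with 6.24 and 5.91 in shLHX2 cells, against 5.98 and 5.92 in shLuc cells, a difference of 0.13 ± 0.18 (SE; limma adjusted p = 0.883). At day 16 EGFL6 was undetected in dox-plus cells, at 4.89 and 4.84, against 7.11 and 7.04 in dox-minus cells, and was at least 2.96-fold lower. Like BGN, it was higher in dox-plus cells at day 4 and lower in them at day 16. Between the days it was at least 2.27-fold lower at day 16 in dox-plus cells and at least 2.65-fold higher in dox-minus cells.

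EGFLAM encodes pikachurin, which in the mouse retina binds dystroglycan at the photoreceptor ribbon synapse. SRPX2 encodes a sushi-repeat protein known as a ligand of the urokinase receptor. By its brightest probe EGFLAM stood at 5.33 and 5.40 in dox-plus cells at day 16, where that probe was undetected, against 10.98 and 11.03 in dox-minus cells. SRPX2 was undetected in dox-plus cells at day 16 too, at 4.49 and 4.52, against 9.46 and 9.40 in dox-minus cells. These were the widest gaps among the 10 genes, at least 45.2-fold for EGFLAM and at least 15.1-fold for SRPX2. The duplicates agreed closely, and in the dox-minus group they differed by 0.26 and 0.74 times their combined bead standard error. Outside the dox-minus day 16 group SRPX2 was detected on no array, and the brightest EGFLAM probe only on 1 shLuc array, at 5.74. A second EGFLAM probe was also detected on 1 dox-plus day 16 array, at 5.53. Their day 4 and knockdown differences did not pass the test. Those of EGFLAM were -0.02 ± 0.21 (SE) at day 4 and -0.35 ± 0.21 (SE) in the knockdown arm, and those of SRPX2 were -0.07 ± 0.18 (SE) and 0.14 ± 0.18 (SE). With the gene undetected in both groups, these differences are between background signals for SRPX2 in either comparison and for EGFLAM at day 4.

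The promoters of EGFL6, which passed the test at day 4, and of EGFLAM and SRPX2, detected almost only in dox-minus day 16 cells, were read from RefSeq, each 250 bases before a start site (GRCh38.p14) and written 5′ to 3′ on the plus strand. They lie at chrX:13569351-13569600, at chr5:38258309-38258558, which is the upstream one of 2 EGFLAM windows, and at chrX:100643949-100644198. Capitals mark a match to a searched motif.
EGFL6: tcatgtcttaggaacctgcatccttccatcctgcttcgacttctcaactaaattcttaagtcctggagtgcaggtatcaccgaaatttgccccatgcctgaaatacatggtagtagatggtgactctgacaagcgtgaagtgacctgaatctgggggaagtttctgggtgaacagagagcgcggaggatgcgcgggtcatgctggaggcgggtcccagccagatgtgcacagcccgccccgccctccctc
EGFLAM: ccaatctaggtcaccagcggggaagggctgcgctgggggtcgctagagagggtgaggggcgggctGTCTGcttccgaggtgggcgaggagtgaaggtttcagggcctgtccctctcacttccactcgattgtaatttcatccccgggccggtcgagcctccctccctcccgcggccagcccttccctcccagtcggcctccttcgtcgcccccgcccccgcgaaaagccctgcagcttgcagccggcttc
SRPX2: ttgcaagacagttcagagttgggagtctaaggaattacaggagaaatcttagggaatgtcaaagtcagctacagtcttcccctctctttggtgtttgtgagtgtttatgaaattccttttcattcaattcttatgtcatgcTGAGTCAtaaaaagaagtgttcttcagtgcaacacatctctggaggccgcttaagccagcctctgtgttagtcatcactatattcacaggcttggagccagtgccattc

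Promoter windows were matched for 8 of the 10 genes, 9 windows in all, and not for DCN and LUM. The motifs searched, on both strands, were TAATTA, the core bound by many homeodomain proteins, CAGAC, a form of the SMAD box, TATAAA, the TATA box, and TGAGTCA, the AP-1 site. No matches overlapped each other. TAATTA occurred in 0 of the 9 windows, beside 4.35% of 35116 promoter windows of the same length. CAGAC occurred in 3 of 9, both windows of EGFLAM and that of POSTN, beside 38.0% of all windows. TATAAA occurred in 1, that of POSTN (10.7% of all), and TGAGTCA in 2, those of POSTN and SRPX2 (4.2% of all). In the EGFLAM window the match, on the reverse strand, starts 185 bases before the start site, and in the SRPX2 window the AP-1 match starts 109 bases before it. A match is a string of letters and not a shown binding site, and the lack of one says nothing on a factor. The share of G and C ran from 36.4% for POSTN and 42.4% for SRPX2 to 72.8% for TGFBI and 74.0% for BGN, beside a median of 58.0% over all windows.

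Of the 10 genes 5 had more than 1 probe, which gives a second reading within the same arrays. The second kept probe of EGFL6 was also higher in dox-plus cells at day 4, by 0.78 ± 0.24 (SE), but did not pass the test over all kept probes (limma adjusted p = 0.151). It was detected on 1 dox-plus array and on no dox-minus array of that day. The second kept probes of DCN, for 1 transcript isoform, and of LUM were undetected on all 4 knockdown arrays and give no second reading there. The call of DCN therefore rests on the probe shared by all its isoforms. At day 16 the second DCN and EGFL6 probes were undetected in dox-plus cells. That of DCN was at least 2.97-fold lower there, and that of EGFL6 at least 1.42-fold lower, relative to dox-minus cells. The second LUM probe had 5.65 and 5.20 in dox-plus cells, detected on 1 of 2 arrays, against 7.53 and 7.81 in dox-minus cells. The second EGFLAM probe had 5.53 and 5.04 in dox-plus cells, also detected on 1 of 2 arrays, against 8.02 and 8.51 in dox-minus cells. Another DCN probe, another POSTN probe and 2 further EGFLAM probes, each for 1 isoform in DCN and EGFLAM, did not pass the detection filter.

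**Figure D3:**
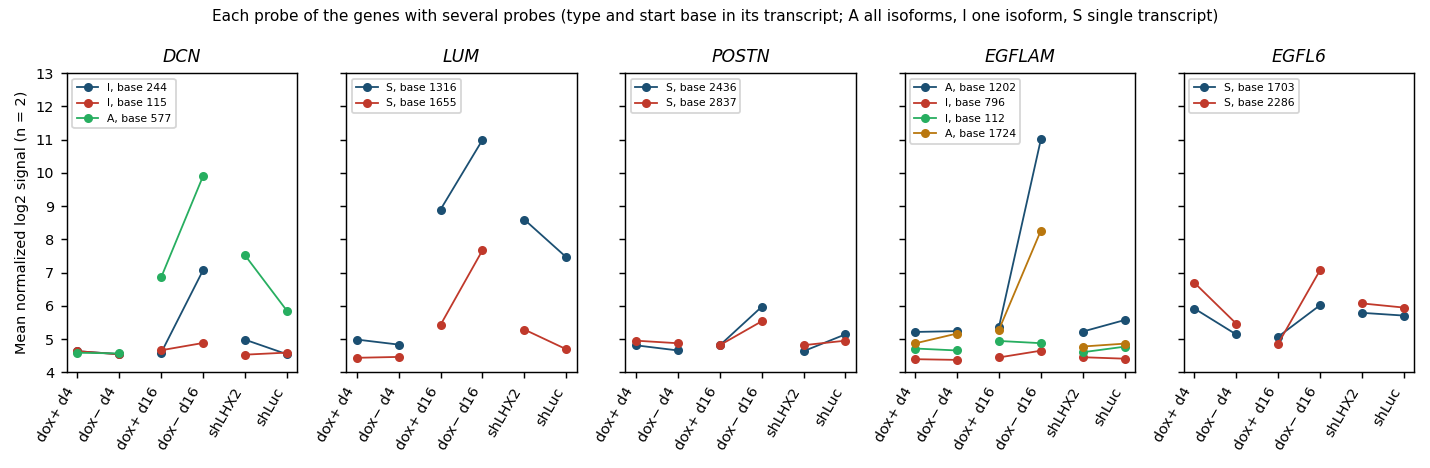
Group means of normalized log2 signal (n = 2 arrays) for each probe of the 5 genes with several probes, with lines joining dox-plus to dox-minus or shLHX2 to shLuc. Lines of the kept probes of a gene slope the same way at day 16, while 1 isoform-specific probe of DCN and 2 of EGFLAM stay near the floor in every group. Levels of different probes are not comparable.

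All 10 genes had lower signals on both dox-plus than on both dox-minus arrays at day 16, as did 26.6% of all genes. Over all genes 13.7% were past the threshold, 7.64% lower and 6.08% higher. Since this comparison was used in choosing the 10 genes, no call is given for them and nothing is read from their count. BGN, EGFL6 and VCAN had both dox-plus arrays above both dox-minus arrays at day 4 and below them at day 16, as did 5.34% of all genes. The day 16 side of this pattern went into choosing the genes, so their count is not read against that share. The median day 16 difference over the 10 genes was -2.15, beside 0.02 over all genes. The 2 comparisons between days share arrays with the day 16 comparison, so they are given as values, with no call for the 10 genes. In dox-minus cells all except VCAN had higher levels at day 16 than at day 4. The median difference was 3.40, beside -0.04 over all genes, of which 18.0% were past the threshold, 9.70% higher and 8.35% lower. In dox-plus cells 5 of the 10 were higher and 5 lower, from -1.84 for VCAN to 3.91 for LUM. The median there was 0.05, beside -0.01 over all genes, of which 36.6% were past the threshold, 17.8% higher and 18.9% lower. Duplicates of the 10 genes often differed beyond the error of the beads. In 19 of 39 gene and group pairs detected on both arrays (48.7%) they differed by more than 2 combined bead standard errors, beside 43.8% of 82576 such pairs over all genes.

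Pearson correlations of log2 signal over the 12 arrays describe how alike the genes were. The arrays fall into 6 groups of duplicates and share the normalization, so these are descriptions. Over the 45 pairs of genes r ran from -0.77, for TGFBI with VCAN, to 0.99, for EGFLAM with SRPX2, with a median of 0.63. The 8 pairs below 0 all included VCAN. DCN and LUM, the neighbours on chromosome 12, had an r of 0.95. The value for EGFLAM and SRPX2 rests on the 2 arrays on which both were detected. Among all other genes tested, those most like each one, up to 2, were HOXB2 (0.99) and PMP22 (0.98) for DCN, and TRIM55 (0.98) and EFNA1 (0.96) for LUM. They were FAM174A (0.96) and IL13RA1 (0.94) for BGN, and DNAJC7 (0.96) for VCAN. SPARC was most like KDELR3 (0.99) and the basement membrane collagen gene COL4A1 (0.97), POSTN like PGRMC2 (0.92) and ADGRG6 (0.91), and TGFBI like the transglutaminase gene TGM2 (0.99) and ABCA4 (0.99). EGFLAM was most like TM4SF1 (0.997) and CRHBP (0.996), EGFL6 like QPCT (0.97) and STC2 (0.95), and SRPX2 like CLEC1B (0.996) and CPED1 (0.995). The values for EGFLAM and for SRPX2 again rest on the 2 dox-minus day 16 arrays, as both genes were near the floor on the others.

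**Figure D4:**
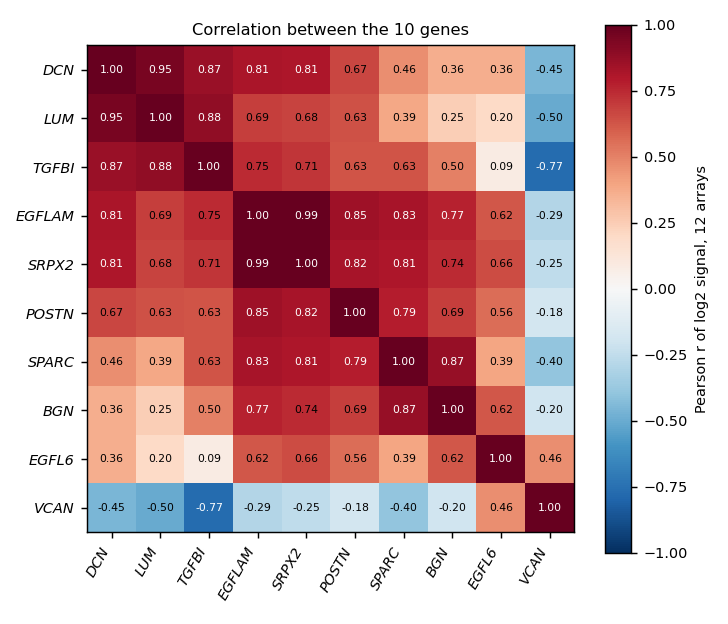
Pearson correlation of normalized log2 signal over 12 arrays for each pair of the 10 genes. EGFLAM and SRPX2 (0.99) and DCN and LUM (0.95) are the most alike pairs, and VCAN is below 0 with every other gene except EGFL6.

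Related genes were counted in 7 lists, with 96 genes tested: other small leucine-rich proteoglycans, lecticans and link proteins, heparan sulfate and other proteoglycans, other matricellular proteins, EGF-like and sushi relatives, enzymes of glycosaminoglycan synthesis, and TGF-beta ligands, latency proteins and receptors. At day 4, 1 of the 96 was higher and 0 were lower (1.04%). That gene was THBS2, for the matricellular thrombospondin-2, at 7.998 ± 0.429 in dox-plus and 6.660 ± 0.053 in dox-minus cells (SD, n = 2 each), a difference of 1.34 ± 0.23 (SE; limma adjusted p = 0.0160). Between shLHX2 and shLuc cells 0 were higher and 1 was lower. That was GPC3, for the cell-surface proteoglycan glypican-3, at 10.16 ± 0.06 in shLHX2 and 11.33 ± 0.07 in shLuc cells (SD, n = 2 each), a difference of -1.17 ± 0.19 (SE; limma adjusted p = 0.0161).

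At day 16, 30 of the 96 related genes were lower in dox-plus cells and 8 were higher (39.6%, beside 13.7% of all genes), and the median of the 96 was -0.25. Both other small leucine-rich proteoglycan genes tested were lower, FMOD by 2.32 ± 0.19 (SE) and TSKU by 0.73 ± 0.22 (SE). Of 9 lectican and link genes 3 were lower: CD44, the hyaluronan receptor, by 4.38, HAPLN1 by 2.15 and HAS2, a hyaluronan synthase, by 1.55. NCAN, for the brain proteoglycan neurocan, was higher by 1.19. Of 18 other proteoglycan genes 4 were lower, led by CSPG4 with a difference of -2.24. Another 3 were higher, led by PTPRZ1, a receptor phosphatase of neural cells, with 1.87. Of 19 other matricellular genes 7 were lower and 4 higher, among them CCN4, at least 3.62-fold lower, and SMOC1, higher by 2.04. In the EGF-like and sushi list SVEP1 was lower by 2.55 and SRPX by 1.25, and the other 4 were not called. Of 27 glycosaminoglycan synthesis genes 5 were lower and 0 higher, with CHPF, CHSY3 and EXT1 at -1.29, -1.20 and -1.13. Of 15 TGF-beta genes 7 were lower and 0 higher, with the receptor gene ACVRL1 at least 8.29-fold lower and LTBP2, for a latency protein, lower by 2.14.

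**Figure D5:**
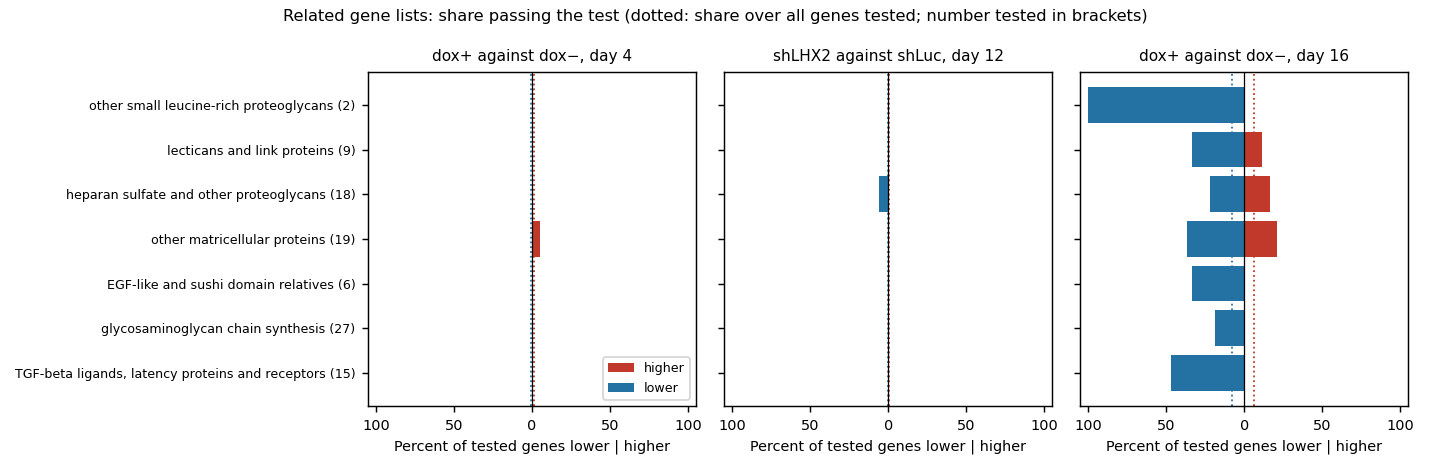
Percent of the tested genes of 7 related gene lists that were called lower (left) or higher (right) in 3 comparisons, with dotted lines for the percent over all genes. At day 4 and in the knockdown arm 1 gene of 96 was called, and at day 16, 30 were lower and 8 higher.

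Markers of cell types also differed at day 16, some lists lower and some higher in dox-plus cells. Summed signals of 12 mesenchyme and fibroblast markers were 9210 to 10400 in dox-plus cells, against 35100 to 38000 in dox-minus cells, with 8 of 12 lower, among them COL6A3 by 4.28 and PDGFRA by 3.98. Those of 9 smooth and cardiac muscle markers were 24600 to 26200 in dox-plus cells, against 53400 to 57100 in dox-minus cells, with 6 of 9 lower. Those of 7 neural progenitor markers were 34100 to 35900 in dox-plus cells, against 10500 to 11000 in dox-minus cells, with 5 of 7 higher. All markers of these 3 lists were detected on at least 1 array of each day 16 group. Of all genes 7.64% were called lower and 6.08% higher at day 16. At day 4, where BGN and EGFL6 were higher, the mesenchyme sums were 8710 to 12800 in dox-plus cells, against 10000 to 11000 in dox-minus cells. There 1 of 12 was lower, FN1, at least 1.18-fold, and COL3A1 and MEOX1 were undetected in both groups. The muscle sums at day 4 were 35100 to 45700 in dox-plus cells, against 49300 to 52200 in dox-minus cells. Of the 9 muscle markers 3 were lower at day 4, beside 0.594% of all genes, and MYH11 was undetected in both groups. Of the 7 neural progenitor markers 0 were called at day 4, with PAX6 and LMO3 undetected in both groups. In the knockdown arm, where DCN was higher, the mesenchyme sums were 5210 to 5960 in shLHX2 cells, against 6110 to 6450 in shLuc cells, with 0 of 12 called and FN1 and MEOX1 undetected in both. Of the 7 neural progenitor markers 1 was called there, PAX6, lower by 1.57 ± 0.22 (SE; limma adjusted p = 0.00790). In that arm 0.294% of all genes were called lower and 0.249% higher. Among the other 6 marker lists at day 16, 3 of 4 endoderm, 2 of 3 endothelium, 2 of 7 neural crest and 2 of 4 pluripotency markers were lower in dox-plus cells. Another 3 of 6 cartilage and bone markers and 2 of 3 meninges and choroid plexus markers were higher. At day 4 the endothelial VWF was higher and TEK lower, and TEK and the endodermal APOA1 were lower in shLHX2 than in shLuc cells, with no other call in these 6 lists. The part of these markers in the differences of the 10 genes was not tested.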

How the data were processed

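Per the labels' protocols, Ambion MessageAmp reagents turned the RNA of 12 H9 cultures into biotinylated cRNA. Per the file headers, the deposited values of each probe are a mean bead intensity, its bead standard error and a detection p-value. The array medians ran from 73.1 to 89.2 with no normalization between arrays, and the sources used here name no scanner software or genome build. The series table deposited holds the same intensity values, with the columns of the 2 shLuc arrays exchanged. From the deposited intensities, log2 signals were computed with neqc of limma 3.58.1 in R 4.3.3 (normexp background, offset 16, quantile normalization, with negative controls modelled through detection p-values). The 21526 probes detected at p under 0.01 by both duplicates of some group were kept, and the brightest kept probe stood for its gene. Of 47227 probes, 35670 matched a current symbol by Entrez identifier, 8287 kept the name in the file and 3270 had no identifier. One limma fit of 12 arrays with a mean per group (6 residual and 5.93 prior degrees of freedom) gave all differences. It was tested on simulated data. The genes named are the 10 members, LHX2, up to 4 called members of each list with the largest differences, and the 2 genes most like each member, apart from 2 genes not reported here that stay in every test and count. Members, lists and motifs were chosen with earlier results of these data known. Alternatives covered background, scaling, filter, spread, weights, replicate block, threshold and left-out arrays.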

Additional observations from a re-analysis of the deposited data

Results flagged for a closer look

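For 3 of the 10 genes both dox-plus arrays were above both dox-minus arrays at day 4 and below them at day 16, as they were for 5.34% of all genes tested. All 10 were below at day 16, the comparison used in choosing them, so the count of 3 is not read against that share. The log2 difference of BGN, dox-plus minus dox-minus, was 1.34 at day 4 and -2.20 at day 16. That of EGFL6 was 1.23 at day 4 and -2.21 at day 16, each against a group in which it was not detected, so that the bounds were at least 2.03-fold higher and at least 2.96-fold lower. That of VCAN was 0.59 at day 4, where it missed the threshold (limma adjusted p = 0.308), and -0.78 at day 16. The difference between the days was not tested, because the day 16 comparison was used in choosing the genes.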

How the results depend on the processing

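With 2 arrays a group, leaving 1 out assumes that the lone array varies like the other groups. At day 4, 2 of the 10 genes were called. The count was 1 with no detection filter (EGFL6), 1 of 4 tested among genes detected on all 12 arrays (BGN), 0 with only the 4 arrays of the comparison, 1 at an adjusted p under 0.01, and 0 to 2 with 1 array left out. Between the knockdown groups 1 was called. That count was 2 with median scaling, 0 with the unnormalized series values, 0 of 4 among genes detected on all 12 arrays, 2 with a robust trend, 4 with array weights (DCN, LUM, BGN, SPARC), and 0 to 2 with 1 array left out. Of all genes 302 were called at day 4. With the series values there were 592, with array weights 180, with the replicate block 194, with only 4 arrays 61, at an adjusted p under 0.01 51, and with 1 array left out 28 to 435. Of 85 in the knockdown arm, these settings gave 55 with the series values, 21 for genes detected on all arrays, 418 with weights, 31 under 0.01, and 10 to 125 with 1 array left out. Of 2148 at day 16 they gave 1346 with the series values, 1388 for genes detected on all arrays, 1067 with only 4 arrays, 1020 under 0.01 and 908 to 3076 with 1 array left out. At day 4 69.2% of the calls were higher, beside 87.1% with median scaling and 93.8% with the series values, which moved the median of all genes to 0.15 and 0.22. Of the knockdown calls 45.9% were higher, beside 28.6% with median scaling, 28.6% for genes detected on all arrays and 16.4% with the series values, with medians of -0.13, 0.01 and -0.17.

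The median day 16 difference of the 10 genes, -2.15, was -1.69 without background correction, -1.73 with offset 50, -1.64 with the series values, -1.21 over the 4 detected on all arrays, and -2.16 to -1.85 with 1 array left out. Between the days in dox-minus cells it was 3.40, and 2.74, 2.98, 2.79 and 1.96 under the same 4 settings, and 3.35 to 3.46 with 1 array left out. In dox-plus cells it was 0.05, and turned to -0.06 with median scaling, -0.08 with the series values, -0.49 over the 4 detected on all arrays, and -0.11 to 0.20 with 1 array left out. Turned signs otherwise touched only differences that were not called. At day 4 DCN was -0.04 with median scaling and -0.22 with cyclic loess, LUM -0.11 with loess, SPARC 0.08 with median scaling and 0.18 with the series values, EGFLAM 0.11 and SRPX2 0.00 with the series values. In the knockdown arm TGFBI was -0.02 with median scaling and -0.10 with the series values, and EGFL6 -0.05 with the series values. With 1 array left out, day 4 differences ran from -0.09 to 0.13 for DCN, 0.00 to 0.30 for LUM, -0.05 to 0.36 for POSTN, -0.05 to 0.15 for TGFBI, -0.14 to 0.09 for EGFLAM and -0.20 to 0.06 for SRPX2. Knockdown differences then ran from -0.22 to 0.52 for TGFBI, -0.04 to 0.29 for EGFL6 and -0.58 to 0.17 for VCAN. The cause of these shifts was not tested.

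Replicate deviations of same-numbered arrays correlated at 0.33 at day 4, -0.58 at day 16 and 0.07 in the knockdown arm. With 2 arrays a group, these values cannot settle whether the numbers pair the samples. With the replicate block BGN had a limma adjusted p of 0.0315 at day 4 and DCN 0.0171 in the knockdown arm, and the block changed no call of the 10 genes in these 2 comparisons.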
